A study of Mus musculus with 23 samples.

Results

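The CCN genes Ccn1 to Ccn5, the TGF beta ligand genes Tgfb1, Tgfb2 and Tgfb3, and the thrombospondin gene Thbs1 were followed through the first spermatogenic wave of the mouse testis in vivo and in organotypic culture. These are 9 of the 27466 genes in the count table, and all 9 passed the filter on low counts. They were chosen on their measured levels over these ages and culture days, so their levels and their contrasts between stages are given as a description, without a test. Testes of wild-type CD-1 males were collected at 6.5 days postpartum (dpp) and, later, at 10.5, 22.5 or 36.5 dpp, and fragments of 6.5 dpp testes were cultured for 4, 16 or 30 days (D4, D16 and D30), which gives the same ages as the last 3 in vivo groups. The medium was α-MEM with KSR, a serum replacement, and retinol. Some 6.5 dpp testes and 1 D30 culture had gone through controlled slow freezing (CSF) and thawing. Fresh and CSF libraries of a stage were grouped, which left 4 libraries at 6.5 dpp (1 fresh, 3 CSF), 3 each at 10.5 dpp, 22.5 dpp and D4, 2 each at 36.5 dpp and D16, and 4 at D30 (3 fresh, 1 CSF). A culture library pooled 12 explants after removal of their necrotic centre, so it does not sample the whole explant.

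TGF beta ligands are secreted in a latent complex, from which integrins and thrombospondin-1 can release them. The free ligand binds a pair of serine/threonine kinase receptors that phosphorylate Smad2 and Smad3, and the Smad complex then switches on matrix genes, protease inhibitors and its own inhibitors. CCN proteins are secreted matricellular proteins that bind integrins and matrix, and Ccn1 and Ccn2 are textbook targets of both the Smad and the YAP/TEAD transcription factors. In the testis this signalling is known in Sertoli, peritubular myoid and interstitial cells.

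Each library held between 28351546 and 69029328 counts, and none of the 9 genes had fewer than 3 counts in any of the 21 libraries used. Levels are CPM, the count divided by the library total and scaled to the usual fixed depth. Of the fresh 6.5 dpp columns, replicates 2 and 3 differed in 0 genes and were counted as 1 library, and replicate 1 was left out because it stood apart from the other 6.5 dpp libraries. In replicate 1, 5 of the 9 genes lay below the range of the other 4 libraries at 6.5 dpp, 3 lay above it (Ccn5, Tgfb1 and Thbs1) and only Tgfb3 lay within it. Its Ccn4 level was 7.47 CPM, where the others ran from 76.7 to 124 CPM, and its Ccn5 level was 2.59 CPM, where the others ran from 0.0973 to 0.423 CPM. Its summed level of 5 peritubular markers was 142 CPM (804 to 935 CPM in the others), and that of 5 Leydig markers was 120 CPM (595 to 922 CPM). The stromal sum was also lower, at 864 CPM (2244 to 2671 CPM). Higher were the endothelial sum at 300 CPM (119 to 219 CPM), the Sertoli sum at 4138 CPM (2630 to 3983 CPM) and the spermatid sum at 26.9 CPM (1.43 to 4.82 CPM). The macrophage sum, at 95.6 CPM, lay within the range of the others (59.5 to 95.7 CPM). The study calls its replicates biological, but the labels do not tie libraries to animals. It also counts fewer CSF samples at 6.5 dpp than the 3 columns so labelled, all of which were used here, and whether a column was duplicated or exchanged at deposit could not be told.

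The promoters of Ccn1, Tgfb1 and Tgfb2 are shown because they are the only 3 of the 9 genes matched in the RefSeq promoter table (GRCm38.p6), and each had its highest mean level at D4. The 250 bases before each start are printed 5′ to 3′ on the gene's strand, and capitals mark the TATA box letters TATAAA on the gene's strand, the TEAD core GGAATG on either strand (CATTCC is its reverse complement) and the Smad core CAGAC on either strand (reverse complement GTCTG). No 2 of these motifs overlapped. The Ccn1 and Tgfb1 windows end at the gene's annotated start, whereas the Tgfb2 window lies before a transcript start 3708 bases inside the annotated gene.
Ccn1, chr3:145649986-145650235, minus strand: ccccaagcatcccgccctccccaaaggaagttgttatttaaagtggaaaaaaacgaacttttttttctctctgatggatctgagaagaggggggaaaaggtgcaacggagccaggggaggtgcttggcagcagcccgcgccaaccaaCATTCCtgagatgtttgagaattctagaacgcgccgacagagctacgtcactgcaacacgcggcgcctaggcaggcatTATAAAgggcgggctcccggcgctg
Tgfb1, chr7:25686752-25687001, plus strand: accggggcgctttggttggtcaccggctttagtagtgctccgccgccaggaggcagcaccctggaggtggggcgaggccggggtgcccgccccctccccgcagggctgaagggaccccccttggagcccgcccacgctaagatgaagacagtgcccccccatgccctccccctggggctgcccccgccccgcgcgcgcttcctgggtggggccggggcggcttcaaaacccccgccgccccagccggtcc
Tgfb2, chr1:186705990-186706239, minus strand: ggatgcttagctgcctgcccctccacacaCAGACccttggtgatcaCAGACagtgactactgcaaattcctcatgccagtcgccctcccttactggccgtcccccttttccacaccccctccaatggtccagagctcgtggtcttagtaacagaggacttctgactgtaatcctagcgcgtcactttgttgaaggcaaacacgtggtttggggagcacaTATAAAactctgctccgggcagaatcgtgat
Counted back from the start, Ccn1 had the TEAD core at -103 to -98 and TATAAA at -25 to -20. Tgfb2 had the Smad core at -221 to -217 and at -204 to -200 and TATAAA at -31 to -26, and Tgfb1 had none of these letters in the window. Among all 32851 promoter windows of this length, TATAAA was found in 7.59%, the TEAD core in 12.6% and the Smad core in 42.2%, so each match describes the letters only.

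Tgfb1 (chromosome 7, 25687002 to 25705077) encodes the ligand best known from fibrosis and immune regulation. It measured 17.6 CPM in the fresh and 19.3, 15.8 and 12.0 CPM in the CSF libraries at 6.5 dpp, 19.3, 22.7 and 18.7 CPM at 10.5 dpp, 15.2, 25.6 and 19.0 CPM at 22.5 dpp, and 7.93 and 6.87 CPM at 36.5 dpp. In culture it measured 38.5, 36.4 and 44.0 CPM at D4, 36.5 and 38.9 CPM at D16, and 33.9, 32.3, 39.3 and, for the CSF library, 33.7 CPM at D30. All 9 culture libraries lay above all 12 in vivo libraries. Within culture the ranges of the 3 days overlapped, and in vivo only 36.5 dpp stood apart from the next stage in order.

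Tgfb2 (chromosome 1, 186622787 to 186709697), a ligand prominent in development, measured 10.7 CPM in the fresh and 12.3, 14.1 and 11.4 CPM in the CSF libraries at 6.5 dpp and 10.8, 10.7 and 8.55 CPM at 10.5 dpp. It measured 2.93, 5.29 and 1.87 CPM at 22.5 dpp and 0.594 and 0.566 CPM at 36.5 dpp, the latter from 20 and 22 counts. These older testes lay below every younger one, and below every culture library except that the lowest at D30 was just under the highest at 22.5 dpp. Cultures measured 16.2, 12.4 and 14 CPM at D4, 6.94 and 8.39 CPM at D16, and 6.57, 5.24, 12.5 and 8.11 (CSF) CPM at D30, with D4 and D30 overlapping by 1 library.

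Tgfb3 (chromosome 12, 86056743 to 86079041), the ligand tied to palate closure and to the Sertoli cell barrier, measured 68.1 CPM in the fresh and 69.8, 53.4 and 40.6 CPM in the CSF libraries at 6.5 dpp, 82.6, 75.4 and 79.1 CPM at 10.5 dpp, 22.2, 37.0 and 23.7 CPM at 22.5 dpp, and 7.75 and 9.54 CPM at 36.5 dpp. The D4 libraries, at 93.8, 91.5 and 99.0 CPM, were above every in vivo library. The D16 libraries measured 57.0 and 66.0 CPM, and D30 spread from 52.7 through 68.7 (CSF) and 69.5 to 114 CPM. D16 and D30 overlapped the 6.5 dpp range and lay above both older ages.

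Thbs1 (chromosome 2, 118111876 to 118127133) encodes thrombospondin-1, which binds the latent complex and can release active ligand. It measured 16.4 CPM in the fresh and 13.0, 18.5 and 6.00 CPM in the CSF libraries at 6.5 dpp, 18, 22.6 and 19.7 CPM at 10.5 dpp, 12.5, 24.9 and 10.9 CPM at 22.5 dpp, and 4.34 and 5.58 CPM at 36.5 dpp. The 3 D4 libraries, at 48.9, 45.9 and 38.3 CPM, were the highest of all. D16 measured 23 and 35.8 CPM and D30 22.9, 18.1, 30.5 and 21.2 (CSF) CPM, which overlapped each other and the range at 22.5 dpp and lay above 36.5 dpp.

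Ccn1 (Cyr61; chromosome 3, 145646971 to 145649985), a matricellular protein that acts on adhesion, angiogenesis and senescence of fibroblasts, measured 16.5 CPM in the fresh and 19.9, 17.6 and 23.7 CPM in the CSF libraries at 6.5 dpp, 13.4, 13.4 and 13.8 CPM at 10.5 dpp, 6.36, 8.05 and 5.60 CPM at 22.5 dpp, and 1.40 and 1.29 CPM at 36.5 dpp. The 4 ages did not overlap, each lower than the one before. At D4 it measured 40.9, 36.2 and 30.2 CPM, above every other library, while D16 (11 and 19.3 CPM) overlapped both of the youngest ages and D30 (14.2, 22.5, 18.4 and, for CSF, 15.9 CPM) overlapped 6.5 dpp.

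Ccn2 (Ctgf; chromosome 10, 24595442 to 24598683), the CCN protein best known as a mediator of TGF beta in fibrosis, measured 102 CPM in the fresh and 70.5, 95.7 and 94.4 CPM in the CSF libraries at 6.5 dpp, 104, 103 and 98.0 CPM at 10.5 dpp, 47.8, 81.3 and 68.1 CPM at 22.5 dpp, and 24.4 and 22.3 CPM at 36.5 dpp. At D4 it measured 43.2, 48.0 and 48.4 CPM, at D16 36.3 and 37.1 CPM, and at D30 43.8, 57.8, 70.4 and 73.0 (CSF) CPM. All D4 and D16 libraries lay below all libraries at 6.5 and 10.5 dpp, the opposite side from Ccn1 at D4. The D16 libraries were also below those at 22.5 dpp, and the D30 libraries were above those at 36.5 dpp.

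Ccn3 (Nov; chromosome 15, 54745910 to 54753762), a CCN protein known to oppose growth and to counter Ccn2 in fibrosis models, had the lowest level per exon length of the 9 genes at 22.5 and 36.5 dpp and in culture. It measured 5.07 CPM in the fresh and 3.97, 5.77 and 8.47 CPM in the CSF libraries at 6.5 dpp and 3.61, 2.92 and 2.58 CPM at 10.5 dpp. It then measured 0.396, 0.285 and 0.253 CPM at 22.5 dpp and 0.178 and 0.0772 CPM at 36.5 dpp, the last from 6 and 3 counts. The ages did not overlap. In culture it measured 0.882, 0.647 and 0.855 CPM at D4, 1.11 and 0.503 CPM at D16, and 0.459, 0.481, 0.126 and 0.578 (CSF) CPM at D30, below the 2 youngest ages in every library.

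Ccn4 (Wisp1; chromosome 15, 66891369 to 66923201), named for its induction by Wnt1 and active in bone and stromal cells, measured 84.2 CPM in the fresh and 124, 122 and 76.7 CPM in the CSF libraries at 6.5 dpp, 83.4, 68.8 and 76.7 CPM at 10.5 dpp, 7.68, 13.9 and 5.85 CPM at 22.5 dpp, and 2.20 and 1.70 CPM at 36.5 dpp. In culture it measured 26.7, 28.9 and 21 CPM at D4, 10.6 and 14.7 CPM at D16, and 6.74, 5.47, 11.6 and 6.51 (CSF) CPM at D30. The 2 youngest ages overlapped, as did D16 and D30, and means were lower with age and with days in culture. D4 lay below 10.5 dpp in every library, D16 overlapped 22.5 dpp, and D30 lay above 36.5 dpp.

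Ccn5 (Wisp2; chromosome 2, 163820752 to 163833146), a CCN protein that lacks the C-terminal domain of the others and is known to restrain fibrosis, had the opposite course. At 6.5 dpp it measured 0.188 CPM in the fresh and 0.187, 0.0973 and 0.423 CPM in the CSF libraries, and at 10.5 dpp 0.112, 0.0834 and 0.236 CPM, from between 3 and 13 counts per library. It measured 3.38, 4.26 and 3.26 CPM at 22.5 dpp and 4.90 and 3.42 CPM at 36.5 dpp, all above both younger ages. The cultures were higher still, at 8.94, 13.0 and 15.1 CPM at D4, 5.51 and 12.2 CPM at D16, and 17.1, 14.1, 33.6 and 27.0 (CSF) CPM at D30. All 9 culture libraries lay above all 12 in vivo libraries, which among the 9 genes was so of Tgfb1 as well. Ccn6, the remaining CCN gene and no member of the set, stayed between 0.149 and 0.607 CPM in all libraries used.

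**Figure D1:**
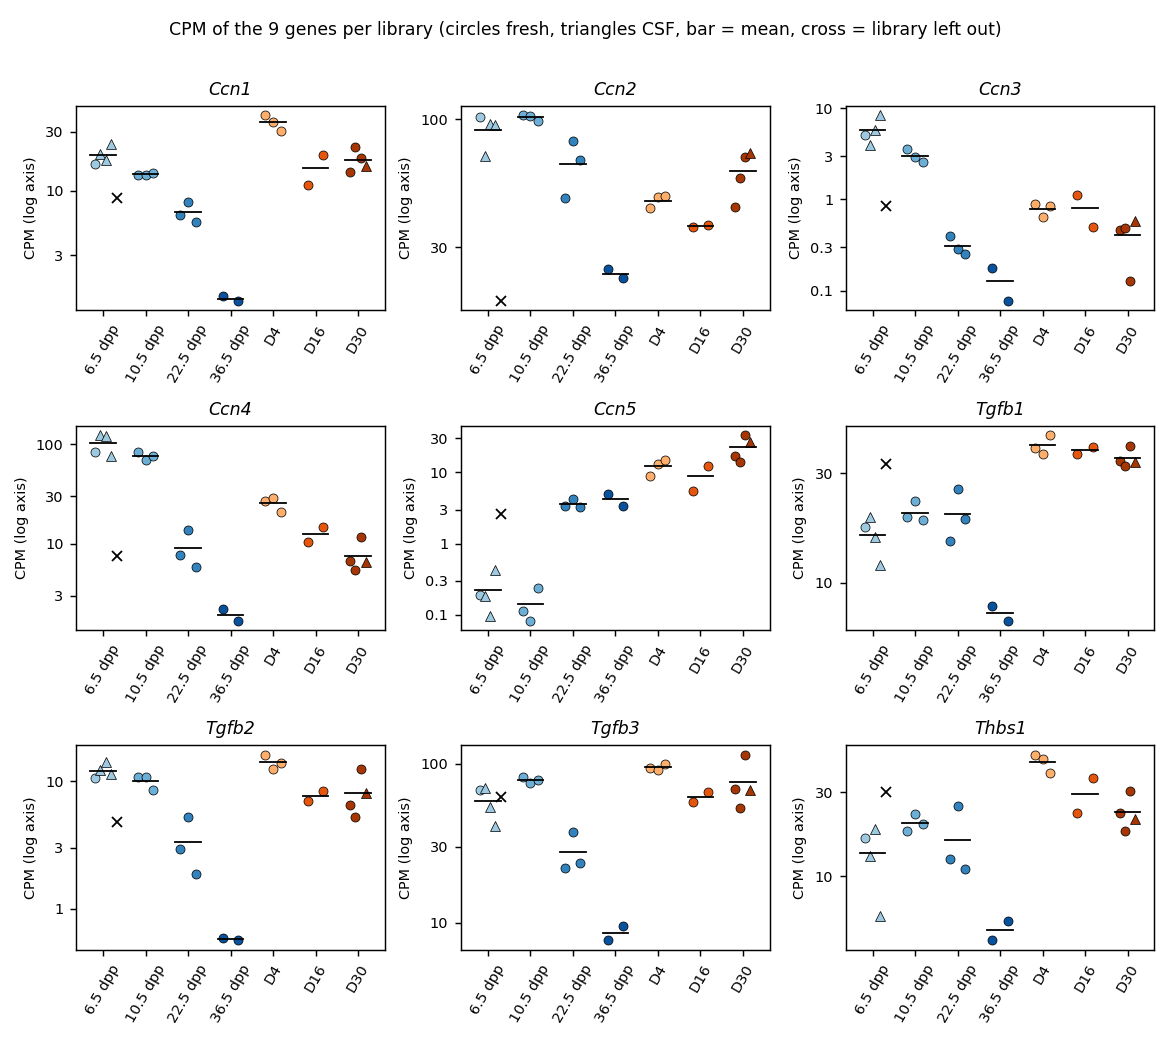
CPM of the 9 genes in each library by stage, on log axes, with 4 ages in vivo in blue and 3 culture days in orange; circles are fresh libraries, triangles CSF libraries, bars means, and the cross the 6.5 dpp library left out. Ccn5 and Tgfb1 lie higher in all 9 culture libraries than in all 12 in vivo libraries, and 36.5 dpp has the lowest mean of the 7 stages for every gene but Ccn5.

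Against the testis of the same age, Ccn1 and Ccn2 lay on opposite sides of the age-matched level at D4, and Ccn5 was the furthest from it. Differences are log2 fold changes from edgeR's quasi-likelihood fit of all 21 libraries, less the median of all 19255 genes fitted. Their standard error (SE) was derived from the fit, as the unsubtracted fold change divided by the square root of its F statistic, without sign. At D4 against 10.5 dpp the differences were 6.42 (SE 0.52) for Ccn5, 1.5 (SE 0.23) for Ccn1, 1.24 (SE 0.32) for Thbs1 and 1.06 (SE 0.17) for Tgfb1. They were 0.60 (SE 0.29) for Tgfb2, 0.35 (SE 0.22) for Tgfb3, -1.03 (SE 0.19) for Ccn2, -1.48 (SE 0.28) for Ccn4 and -1.83 (SE 0.43) for Ccn3, and the groups overlapped in none of the 9.

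By D16 Ccn2 alone remained below its age-matched level, at -0.90 (SE 0.22) against 22.5 dpp. The other 8 genes ranged from 0.41 (SE 0.31) for Ccn4 to 1.28 (SE 0.52) for Ccn3, and the D16 and 22.5 dpp libraries of Ccn4 and of Thbs1 overlapped. These values rest on 2 D16 libraries: before the median of all genes was subtracted, Ccn5 was 1.13 with both and 0.48 without replicate 2, Ccn1 1.03 and 0.61, and Ccn3 1.20 and, without replicate 1, 0.50.

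At D30 all 9 genes had higher means than at 36.5 dpp. Tgfb2 differed by 3.18 (SE 0.39), Ccn1 by 3.12 (SE 0.30), Tgfb3 by 2.52 (SE 0.27), Ccn5 by 1.84 (SE 0.45), Tgfb1 by 1.62 (SE 0.19), Thbs1 by 1.61 (SE 0.37), Ccn4 by 1.35 (SE 0.33), Ccn3 by 1.10 (SE 0.63) and Ccn2 by 0.78 (SE 0.21), and only the Ccn3 libraries overlapped. Scaling by library total instead of TMM (trimmed mean of M values) moved the median of all genes by 0.63 in this comparison and by 0.15 in the D16 comparison. Of the genes called at the thresholds given below, the share that were higher then went from 45.9% to 65.9% and from 51.7% to 67.4%, while no member changed direction. The mean CPM of Ccn1 was 13.3 times and that of Tgfb2 14 times the 36.5 dpp mean, on the library-total scale.

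**Figure D2:**
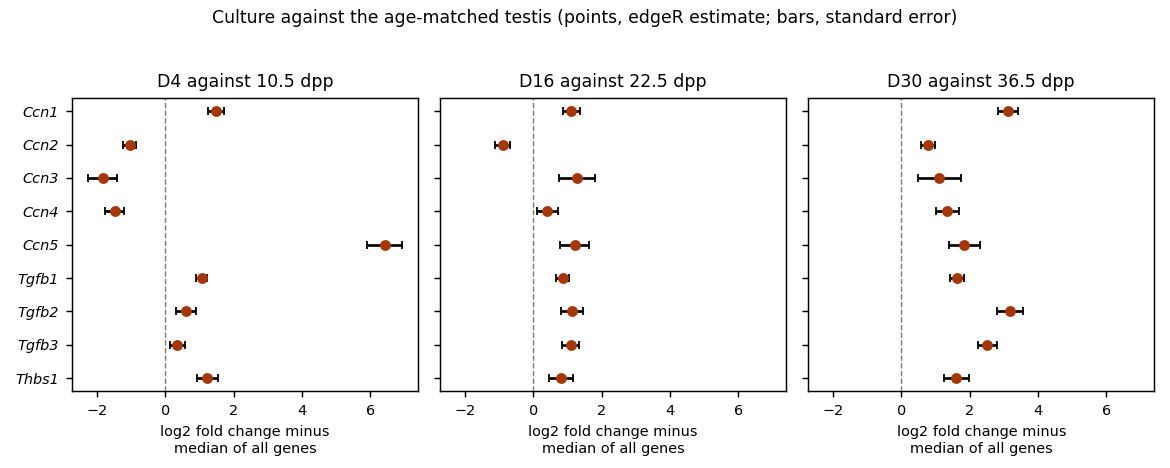
Log2 fold change of each gene between culture and the testis of the same age, less the median of all genes (dashed line at 0), with SE as bars. Ccn2 is at -1.03, -0.90 and 0.78 from D4 to D30, and Ccn5 is at 6.42 at D4 and at 1.21 and 1.84 at the later days.

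From 6.5 to 36.5 dpp in vivo, Ccn4 was the furthest below the median of all genes, at -4.95 (SE 0.39), followed by Ccn3 at -4.79 (SE 0.63), Tgfb2 at -3.63 (SE 0.39), Ccn1 at -3.12 (SE 0.30), Tgfb3 at -1.98 (SE 0.26) and Ccn2 at -1.22 (SE 0.21). Thbs1 at -0.67 (SE 0.35) and Tgfb1 at -0.37 (SE 0.18) were nearest to the median of all genes, and Ccn5 was higher by 5.01 (SE 0.46). With the left-out 6.5 dpp library kept, the Ccn5 value before subtraction of the median went from 5.00 to 3.14. Library-total scaling moved the median of all genes by -0.74 and the higher share of genes called from 52.5% to 39.1%, with no member changing direction. In whole tissue, fewer cells of a type and less RNA per cell cannot be told apart, and the summed level of 5 spermatid markers went from between 1.43 and 4.82 CPM to between 16421 and 21335 CPM over the same ages.

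D4 was also set against 6.5 dpp, the age at which explants were cut. Most libraries at 6.5 dpp were CSF and all at D4 were fresh, so freezing and culture were mixed in this comparison. The differences were 5.88 (SE 0.45) for Ccn5, 1.79 (SE 0.30) for Thbs1, 1.35 (SE 0.16) for Tgfb1, 0.92 (SE 0.21) for Ccn1 and 0.77 (SE 0.21) for Tgfb3. Tgfb2, at 0.28 (SE 0.27), was the only one whose libraries overlapped. Ccn2 was at -0.92 (SE 0.18), Ccn4 at -1.94 (SE 0.27) and Ccn3 at -2.83 (SE 0.43). With the left-out library kept, Ccn5 went from 5.85 to 3.99 before subtraction of the median. This comparison shares its D4 libraries with the one against 10.5 dpp.

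Between D4 and D30 in culture, Ccn4 differed by -1.76 (SE 0.26), Ccn1 by -1.0 (SE 0.21), Thbs1 by -0.94 (SE 0.29) and Ccn3 by -0.93 (SE 0.43), in each case with every D30 library below every D4 library. The D4 and D30 libraries of the other 5 genes overlapped, with values from -0.82 (SE 0.27) for Tgfb2 to 0.89 (SE 0.37) for Ccn5.

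Per exon length, Ccn2 had the largest mean share of the CCN total in every stage but D4. Levels between genes were compared as CPM per kilobase of the union of exons, which runs from 1924 bases for Ccn5 to 5565 bases for Ccn4 among the CCN genes. The CCN total was 61.8 ± 3.25 (SD, n = 4) CPM per kb at 6.5 dpp, 57.1 ± 1.95 (n = 3) at 10.5 dpp, 29.9 ± 7.05 (n = 3) at 22.5 dpp and 11.4 ± 1.17 (n = 2) at 36.5 dpp. In culture it was 45.3 ± 1.57 (n = 3) at D4, 27.5 ± 5.93 (n = 2) at D16 and 43.6 ± 9.25 (n = 4) at D30. Ccn2 held 51.3% ± 6.90 (SD) of this total at 6.5 dpp and 76.5% ± 4.37 at 22.5 dpp, but 36.0% ± 2.57 at D4, where Ccn1 held 39.1% ± 5.43. On D16 and D30 Ccn2 held 47.7% ± 9.58 and 49.0% ± 2.93, where the 6.5 dpp libraries ran from 42.2% to 58.7%. The share of Ccn4 was 29.7% ± 7.40 at 6.5 dpp, 10.1% ± 1.31 at D4 and 3.12% ± 0.806 at D30. That of Ccn5 was 0.190% ± 0.119, 14.2% ± 3.82 and 26.8% ± 6.04 in the same stages, and 18.8% ± 2.83 at 36.5 dpp.

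Among the ligands Tgfb3 was the most expressed per exon length in every stage, with a share of 61.8% ± 5.75 at 36.5 dpp to 80.3% ± 2.14 at 10.5 dpp. The share of Tgfb1 went from 14.3% ± 0.442 in the testes of 6.5 dpp to 35.7% ± 5.54 in those of 36.5 dpp. The cultures lay between, with 20.5% ± 0.969 on D4, 27.8% ± 1.23 on D16 and 23.3% ± 4.14 on D30. Tgfb2 held 9.67% ± 2.42 at 6.5 dpp and 2.43% ± 0.214 at 36.5 dpp. The ligand total was 38.3 ± 2.00 CPM per kb at D4, above the 29.1 ± 0.863 of 10.5 dpp in every library, and 30.8 ± 8.91 at D30 against 4.12 ± 0.221 at 36.5 dpp.

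**Figure D3:**
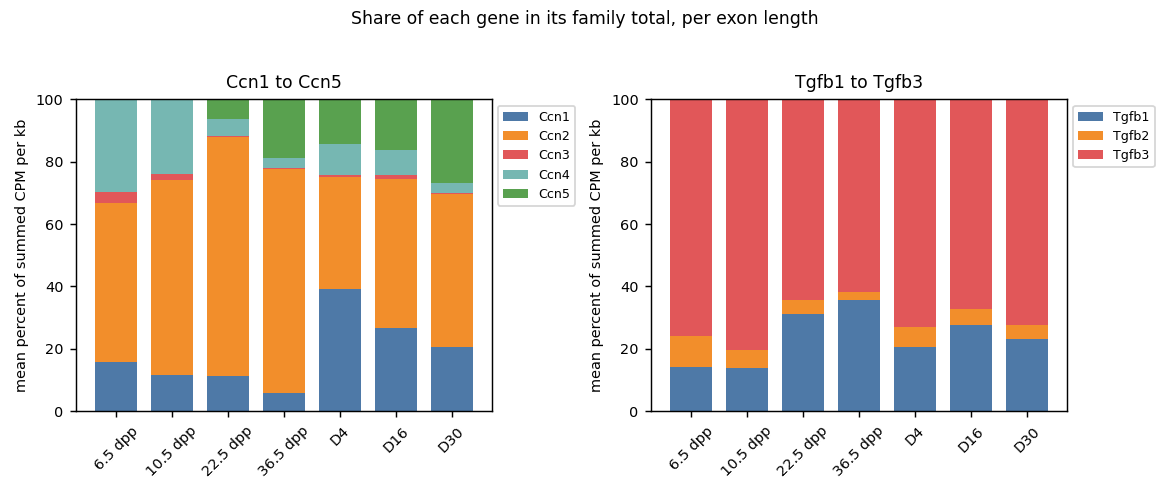
Mean share of each gene in the summed CPM per kb of Ccn1 to Ccn5 (left) and of Tgfb1 to Tgfb3 (right), by stage, as stacked bars that add to 100%. Ccn1 goes from 15.6% of the CCN total at 6.5 dpp to 39.1% at D4, Ccn5 reaches 26.8% at D30, and Tgfb3 is the largest ligand share in each stage.

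The pathway around these genes was read from 8 lists of 70 genes, of which 69 passed the filter (Itgb6, an integrin that releases latent TGF beta, did not). The lists were chosen with earlier results of these data known, so their excess over the share of all genes is no independent test of the pathway. Calls are by edgeR's quasi-likelihood test with Benjamini-Hochberg adjustment over all genes, at 2-fold or more and an adjusted p under 0.05. At D4 against 10.5 dpp, 8 of the 69 rose and 3 fell, where 3.45% of all genes rose and 2.43% fell, and the median of the lists was 0.16 above that of all genes. The 8 that rose belonged to the TGF beta induced targets (5 of 14) and the YAP and TEAD targets (3 of 12). Timp1, an inhibitor of matrix metalloproteinases, had 90.8 ± 16.3 CPM (SD, n = 3) against 12.9 ± 1.29 (n = 3), a log2 difference of 2.91 (adjusted p = 2.19e-06). Postn, the matrix protein periostin, rose by 2.05 (adjusted p = 0.000197) and F3, the coagulation initiator tissue factor, by 1.22 (adjusted p = 0.000221). Col3a1, Lox, Ankrd1 and Edn1 were among the others that rose. Those that fell were the microfibril gene Fbn2 by 1.71 on the log2 scale (adjusted p = 0.00163), the endothelial co-receptor gene Eng by 1.36 (adjusted p = 0.003) and the elastin gene Eln by 1.24 (adjusted p = 0.027). None of the 3 Smad transducers, 9 feedback inhibitors, 7 CCN receptors or 6 thrombospondin relatives passed the thresholds at D4.

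At D16 against 22.5 dpp, 24 of the 69 rose and 4 fell, where 8.83% of all genes rose and 8.24% fell, with a list median 0.74 above that of all genes. YAP and TEAD targets held 9 of the calls, out of 12, with F3 at 38.2 ± 7.20 CPM (n = 2) against 6.61 ± 1.77 (n = 3), a log2 difference of 2.47 (adjusted p = 6.56e-07). Edn1, the vasoconstrictor endothelin-1, rose by 2.97 (adjusted p = 9.05e-07), and Pmepa1, a feedback inhibitor induced by TGF beta, rose by 1.93 (adjusted p = 9.76e-06). Smad7, the inhibitory Smad, rose too, while 0 of the 3 transducing Smads passed. Fbn2 fell by 1.83 (adjusted p = 0.00153), Comp (thrombospondin-5) by 1.86 (adjusted p = 0.0159), Thbs3 by 1.05 (adjusted p = 0.0311), and Ltbp2 was the remaining gene that fell. Without D16 replicate 2 the 28 calls were 17.

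At D30 against 36.5 dpp, 46 of the 69 rose and 4 fell, where 25.2% of all genes rose and 29.8% fell, with a list median 1.98 above that of all genes. All 7 CCN receptors rose, namely the integrins Itgb1, Itgb3, Itga5 and Itga6 and the receptors Lrp1, Lrp6 and Notch1. So did 10 of 13 latency and activation genes, 10 of 14 induced targets, 9 of 12 YAP and TEAD targets, 4 of 9 feedback inhibitors, 2 of 3 Smad transducers (Smad2 and Smad3) and 2 of 5 receptors (Tgfbr2 and Acvrl1). Edn1 had 25.5 ± 8.34 CPM (n = 4) against 0.846 ± 0.105 (n = 2), a log2 difference of 4.29 (adjusted p = 1.68e-08). F3 rose by 3.71 (adjusted p = 7.56e-09) and Nt5e, an ectonucleotidase, by 3.27 (adjusted p = 8.95e-08). Smad6, an inhibitory Smad, fell by 2.37 (adjusted p = 8.37e-07), Ptpn14, a phosphatase that restrains YAP, by 2.00 (adjusted p = 1.85e-05) and Comp by 2.72 (adjusted p = 5.89e-05), and Fbn2 was the fourth that fell. Summed spermatid markers were at 346 to 1635 CPM at D30 and 16421 to 21335 CPM at 36.5 dpp, with all 5 lower, and 5 of 5 stromal, 5 of 5 endothelial and 4 of 5 peritubular markers were higher at D30. So were 5 of 5 Sertoli markers (sums of 4928 to 8252 against 622 to 829 CPM), 2 of 5 macrophage markers and 6 of 9 immediate early genes, with 1 lower (177 to 258 against 52.2 to 79.5 CPM), while 3 of 5 Leydig markers were lower (317 to 571 against 1549 to 1925 CPM). Their part in these results was not tested.

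Over the in vivo ages, 51 of the 69 fell from 6.5 to 36.5 dpp and 3 rose, where 32.0% of all genes fell and 35.4% rose, with a list median 2.71 below that of all genes. The 3 that rose were Comp, from 1.36 ± 0.649 (n = 4) to 380 ± 158 CPM (n = 2), at a log2 difference of 8.87 (adjusted p = 2.87e-10), the thrombospondin receptor gene Cd36 by 2.60 (adjusted p = 1.49e-05) and Smad6. Among those that fell, the receptor gene Acvrl1 had 89.1 ± 21.2 CPM at 6.5 dpp and 3.69 ± 0.0929 at 36.5 dpp, a decrease of 3.83 (adjusted p = 5.59e-10). Fstl1, a secreted follistatin relative, fell by 4.18 (adjusted p = 5.95e-10) and Pmepa1 by 3.39 (adjusted p = 7.79e-10). This comparison shares its 36.5 dpp libraries with the D30 comparison. All 5 peritubular, 5 stromal and 5 endothelial markers were lower at 36.5 dpp, with summed levels of 72.1 to 78.4, 108 to 201 and 16.5 to 17.7 CPM against 804 to 935, 2244 to 2671 and 119 to 219 CPM. Of the Sertoli markers 3 of 5 were lower (622 to 829 against 2630 to 3983 CPM), as were 6 of 9 immediate early genes (52.2 to 79.5 against 168 to 281 CPM), and 3 of 5 Leydig markers were higher (1549 to 1925 against 595 to 922 CPM). Hsd3b1 and Star were not called. Hsd3b1 had a lower mean at 36.5 dpp, at 215 against 343 CPM, and Star had 110 against 101 CPM. The part of these markers in the results was not tested.

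From 6.5 dpp, mostly CSF libraries, to D4, 5 of the 69 rose (Postn, Col1a1, Col3a1, Timp1 and Ankrd1) and 3 fell (Eng, Acvrl1 and Fbn2). These counts were near the 6.87% of all genes that rose and the 5.82% that fell. Timp1 rose by 2.48 (adjusted p = 1.67e-06), Postn by 1.62 (adjusted p = 0.000349) and the collagen gene Col3a1 by 1.21 (adjusted p = 0.00185), while Fbn2 fell by 1.66 (adjusted p = 0.000599), Eng by 1.21 (adjusted p = 0.00204) and Acvrl1 by 1.04 (adjusted p = 0.000597). With fresh libraries alone, which leaves 1 at 6.5 dpp, the 8 calls were 2. From D4 to D30, 23 of the 69 fell and 2 rose, where 7.8% of all genes fell and 23.4% rose. Of the induced targets, 10 of 14 fell, among them Vcan, from 33.7 ± 6.70 (n = 3) to 3.78 ± 0.847 CPM (n = 4), by 3.16 (adjusted p = 4.36e-07), Col1a1 by 3.00 (adjusted p = 6.86e-07) and Col3a1 by 2.64 (adjusted p = 2.28e-07). Comp rose by 6.04 (adjusted p = 1.19e-07) and Cd36 by 1.29 (adjusted p = 0.00811). Summed macrophage markers were at 30.6 to 35.0 CPM at D4 and 168 to 231 CPM at D30, with all 5 higher. Stromal markers summed to 2143 to 2695 CPM at D4 and 932 to 1475 CPM at D30, with 3 of 5 lower (Lum, Col6a1 and Col6a2). All 5 spermatid markers were higher at D30 (0.449 to 0.836 against 346 to 1635 CPM). Of the Leydig markers 3 of 5 were higher at D30. Cyp11a1 and Hsd3b1 were not called and had lower means there, at 81.3 against 113 CPM and 187 against 256 CPM. Summed Leydig markers ran from 291 to 509 CPM at D4 and from 317 to 571 CPM at D30, with means of 425 and 418 CPM. The part of these cells in the results was not tested.

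**Figure D4:**
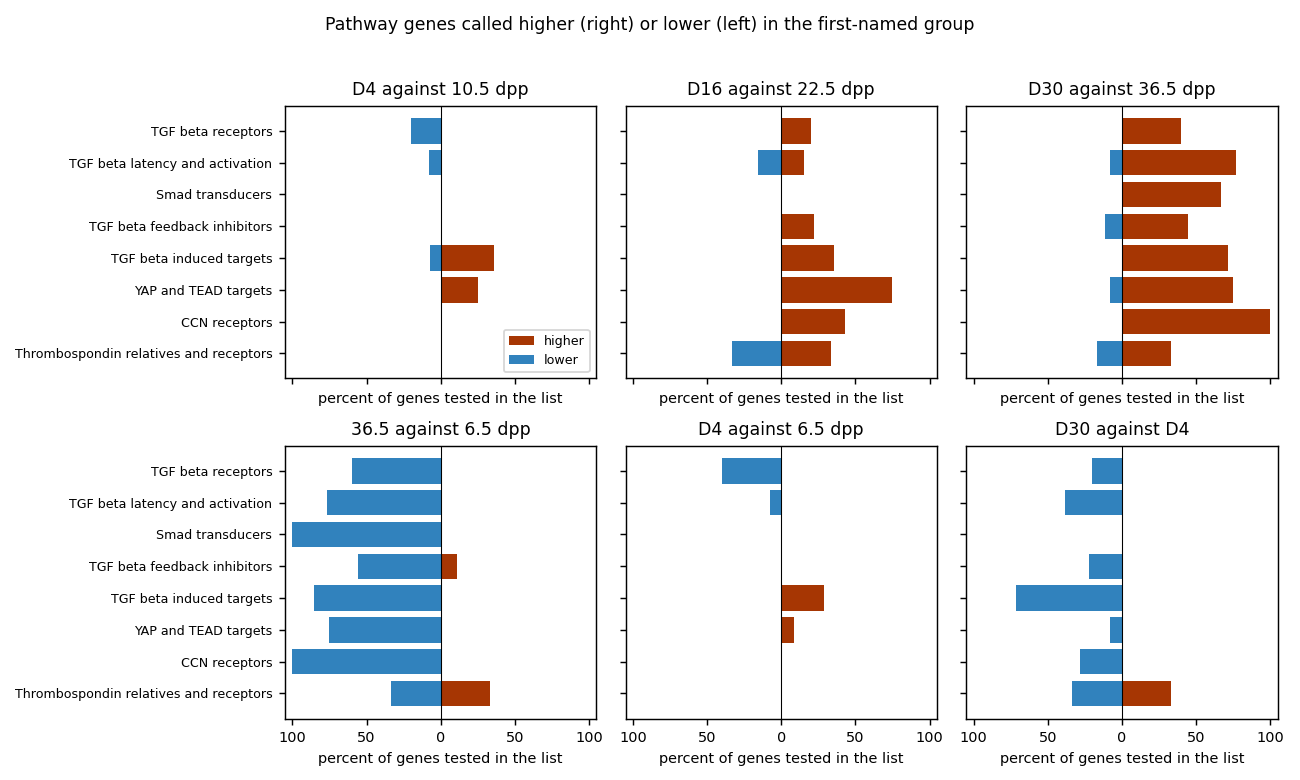
Percent of the genes tested in each of 8 pathway lists that were called higher (right, brown) or lower (left, blue) in the first-named group, for 6 comparisons. At D4 against 10.5 dpp the genes called higher are 5 of 14 induced targets and 3 of 12 YAP and TEAD targets, and at D30 all 7 CCN receptors are higher than at 36.5 dpp.

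The genes whose pattern was most like that of a member were found by Pearson's r on log2 CPM over the 21 libraries, which share depth and cell makeup within a stage. Among the genes most like Ccn1 were Plod2, a collagen lysyl hydroxylase (r = 0.970), and Rbbp7 (0.967). Plod2 had 397 ± 34.8 CPM (n = 3) at D4, 223 ± 17.6 (n = 3) at 10.5 dpp and 20.2 ± 2.46 (n = 2) at 36.5 dpp. Ccn2 was most like Phyh (0.922), Acta2 (0.894) and Ptgis (0.892). Acta2, the smooth muscle actin of peritubular cells, had 317 ± 80.8 CPM at D4 and 595 ± 37.7 at 10.5 dpp, lower at D4 as Ccn2 was. At D30 both had higher means than at 36.5 dpp, Acta2 with 218 against 46.1 CPM and Ccn2 with 61.2 against 23.4 CPM. The 5 peritubular markers summed to 374 to 575 CPM at D4 and 853 to 952 CPM at 10.5 dpp, and none of the 5 passed the thresholds in that comparison.

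Ccn4 had the closest partners among the CCN genes, Zfp467 (0.991), Acvrl1 (0.985) and Jph1 (0.984). Acvrl1, a type 1 receptor of the TGF beta family, had 41.5 ± 2.67 CPM at D4 and 76.7 ± 7.04 at 10.5 dpp. For Ccn5 they were the complement gene C7 (0.968), Apol6 (0.960) and the complement gene C4b (0.960). C7 had 3.81 ± 0.425 CPM at 10.5 dpp, 84.3 ± 11.6 at D4 and 213 ± 52.3 at D30. Ccn3 was most like Socs2 (0.961), Twist2 (0.955) and Glipr2 (0.955).

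Of the ligands, Tgfb1 was most like Zfp36, which encodes an RNA-binding protein of the early stress response (0.971), then Grin2c (0.968) and Gata1 (0.962). Gata1 is also in the list of Sertoli markers. Tgfb2 was most like Hp1bp3 (0.989), Ppm1k (0.986) and Mylip (0.986), and Tgfb3 was most like Tmem184a (0.991), Tnfrsf1a (0.990) and Septin9 (0.990). Thbs1 was most like Tmco4 (0.962), Ptprm (0.953) and Mvp (0.953). The values are given as a description, and stage differences in cell makeup enter all of them.

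**Figure D5:**
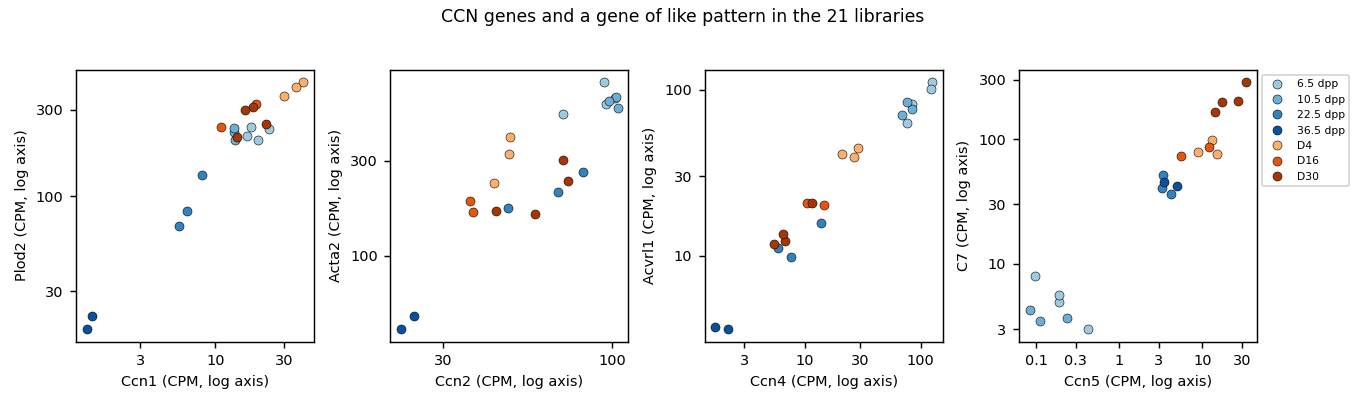
Ccn1 with Plod2, Ccn2 with Acta2, Ccn4 with Acvrl1 and Ccn5 with C7, each point being 1 of the 21 libraries in CPM on log axes, coloured by stage. Ccn1 and Plod2 are both highest at D4 and lowest at 36.5 dpp, and Ccn5 and C7 are both highest at D30.

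Beside the members, several cell type markers differed between D4 and 10.5 dpp. Summed Sertoli markers were at 6934 to 7694 CPM at D4 and 4462 to 4790 CPM at 10.5 dpp, with 0 of 5 called. Most of that sum was Clu, with means of 6387 against 3728 CPM. Amh alone of the Sertoli list had a lower mean at D4, at 228 against 369 CPM. Summed stromal markers ran from 2143 to 2695 CPM and from 2031 to 2053 CPM, with 1 of 5 higher (Lum). Pdgfra alone of the stromal list had a lower mean at D4, at 268 against 379 CPM. Summed endothelial markers were at 249 to 283 CPM at D4 and 183 to 215 CPM at 10.5 dpp, with 2 of 5 higher. Cdh5 alone of the endothelial list had a lower mean at D4, at 95.3 against 111 CPM. Macrophage markers were at 30.6 to 35.0 and 109 to 143 CPM, with 4 of 5 lower. Leydig markers were at 291 to 509 and 988 to 1144 CPM, with 3 of 5 lower, and of 9 immediate early genes, which answer to handling and stress, 1 (Junb) was higher, with sums of 277 to 294 and 267 to 283 CPM. At D16 against 22.5 dpp 5 of these 9, 5 of 5 endothelial, 3 of 5 stromal and 3 of 5 Sertoli markers were higher, and 4 of 5 Leydig markers lower. Of 5 macrophage markers 1 (Mrc1) was lower, and 0 of 5 peritubular markers were called. Of all genes, 3.45% were higher and 2.43% lower at D4 against 10.5 dpp, and 8.83% and 8.24% at D16 against 22.5 dpp. Of the markers in the 7 cell type lists, 0 had 3 counts or fewer in all libraries of a stage, and the part of these cells in the members' levels was not tested.

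Freezing, which had no part in the choice of the 9 genes, could be tested. With stage as a term, frozen minus fresh was between -0.28 (SE 0.31) for Thbs1 and 0.46 (SE 0.43) for Ccn3 on the log2 scale, and none of the 9 was called (adjusted p from 0.676 for Tgfb3 to 0.961 for Ccn4). Ccn5 was at 0.30 (SE 0.44, adjusted p = 0.792) and Ccn1 at 0.06 (SE 0.25, adjusted p = 0.933). With edgeR's quasi-likelihood test 0 of the 69 pathway genes and 0.0% of all genes were called, 1261 genes had an unadjusted p under 0.05, and DESeq2 called 3 genes. The contrast rests on 1 fresh against 3 CSF libraries at 6.5 dpp and 3 fresh against 1 CSF library at D30. With the left-out fresh 6.5 dpp library kept, Ccn5 changed sign to -1.28 (SE 0.67), Ccn3 went to 0.92 (SE 0.49) and Ccn4 to 0.71 (SE 0.53).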

How the data were processed

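Whole-transcriptome RNA-seq of mouse testis was analysed from the table of counts per gene as deposited. Per the authors' methods, stranded libraries were read as 50-base single reads, aligned to GRCm38 with STAR 2.7.3a and counted with HTSeq 0.12.4; the strand setting of the counting is not given in the sources used here, so reads of overlapping or antisense genes may be mixed. All 23 columns matched a labelled sample, and 21 were used. Symbols came from the RefSeq table of GRCm38.p6 (27373 of 27466 identifiers), as did gene positions. Exon lengths came from the GENCODE M21 annotation, matched by gene identifier.

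Genes were filtered with filterByExpr, scaled by TMM and fitted in R 4.3.3 with edgeR 4.0.16 (glmQLFit and glmQLFTest, two-sided, Benjamini-Hochberg adjustment over 19255 genes), 1 group per stage; freezing was tested with stage as a second term. A gene was called at 2-fold or more and an adjusted p under 0.05. The fit was tested on simulated counts. DESeq2 1.42.0 was an alternative.

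The 9 genes and the pathway and marker lists were chosen with earlier results of these data known. Named pathway genes are those called with non-overlapping CPM and the smallest p, up to 3 in each direction per comparison, and genes in counts of 5 or fewer or in lists named in full, the latter chosen after their values were seen. Likeness used log2 CPM with a prior count of 2. One gene of these lists is not reported here by name.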

Additional observations from a re-analysis of the deposited data

Results flagged for a closer look

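Ccn2 stood on opposite sides of its age-matched testis at different culture days, with no overlap between libraries. Its mean CPM at D4 was 0.458 times that at 10.5 dpp and at D16 0.559 times that at 22.5 dpp, but at D30 it was 2.62 times that at 36.5 dpp. These ratios are on the library-total scale. With TMM scaling the D30 log2 difference, before the median of all genes was subtracted, was 0.74 for Ccn2 and 1.31 for Ccn4. Ccn4 did likewise, at 0.335 times the 10.5 dpp mean at D4 and 3.90 times the 36.5 dpp mean at D30. Ccn3, which encodes a CCN protein of low level here, was at 0.262 times the 10.5 dpp mean at D4 and 2.58 times the 22.5 dpp mean at D16, the latter from between 8 and 44 counts per library. In each case every library of 1 comparison moved one way and every library of the other the opposite way; the difference between the comparisons was not tested, and the genes were chosen on these levels.

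The fresh 6.5 dpp replicate 1, which enters none of the comparisons, had 2.59 CPM of Ccn5, above the highest of the other 6.5 dpp libraries, at 0.423 CPM. None of the 9 genes had a library far from the rest of its group in the 2 stages with 4 libraries, the only ones large enough for this check.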

How the results depend on the processing

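Of 837 values of the 9 genes under an alternative, 794 were counted as the same. Between stages this meant a move of less than the spread between replicates, and 0 values changed sign. In the freezing comparison it meant only that the call did not change. None was called there, so the size of a move was not judged, and 10 values changed sign. Library-total scaling moved 18 and the kept fresh 6.5 dpp replicate 1 moved 7. Counts of pathway genes called held within 1.5 times of the main count under DESeq2, RLE size factors, library-total scaling, no filter and the kept replicate. At 4-fold and an adjusted p of at most 0.001 they were 2 instead of 11 for D4 against 10.5 dpp, 3 instead of 28 for D16 against 22.5 dpp, 1 instead of 8 for D4 against 6.5 dpp and 11 instead of 25 for D30 against D4. With no fold minimum they were 17 for D4 against 6.5 dpp and 43 for D30 against D4, and with fresh libraries alone 2 for D4 against 6.5 dpp. Leaving out single libraries gave 17 (without D16 replicate 2) to 30 for D16 against 22.5 dpp, 9 to 12 for D4 against 10.5 dpp, 7 to 9 for D4 against 6.5 dpp, 47 to 53 for D30 against 36.5 dpp, 52 to 55 for 36.5 against 6.5 dpp and 24 to 27 for D30 against D4. In the 2 stages with 2 libraries, the lone remaining library is assumed to vary like the others.

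Libraries share only a replicate number: of 64 pairs of same-numbered libraries, 16 had deviations from their stage means that correlated over 0.1 (range -0.53 to 0.66). With the replicate block, the counts were 11, 27, 52, 54, 8 and 25 for D4 against 10.5 dpp, D16 against 22.5 dpp, D30 against 36.5 dpp, 36.5 against 6.5 dpp, D4 against 6.5 dpp and D30 against D4.

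Of all genes, D4 against 10.5 dpp called 664 higher and 467 lower, with the kept replicate 245 and 148, and at the stricter thresholds 133 and 73; single libraries left out gave as few as 433 (without 10.5 dpp replicate 3) and 262 (without D4 replicate 1). D16 against 22.5 dpp called 1700 and 1587; without D16 replicate 2 this was 876 and 177, without D16 replicate 1 the lower genes were 2837, without 22.5 dpp replicate 1 1114 and 599, without 22.5 dpp replicate 3 665 were lower, with the kept replicate 262 were lower, with no fold minimum 2695 were higher, and at the stricter thresholds 217 and 56. D30 against 36.5 dpp called 4861 and 5730, with library-total scaling 7548 higher, and at the stricter thresholds 1488 and 2613; for 36.5 against 6.5 dpp these left 2842 of 6169 lower. D4 against 6.5 dpp called 1322 and 1120, with the kept replicate 414 and 406, with fresh libraries alone 522 and 403, without D4 replicate 1 727 lower, with no fold minimum 2077 and 1951, and at the stricter thresholds 316 and 149. D30 against D4 called 4510 and 1501, at the stricter thresholds 2409 and 159, and with no fold minimum 3407 lower. Frozen against fresh, at 0, was 3 higher with DESeq2, 1 with the kept replicate or without 6.5 dpp CSF replicate 3, and 1 higher and 2 lower without the D30 CSF library. The causes were not tested. Depth limits Ccn3 in older testes and Ccn5 in young ones, at 3 to 15 counts per library.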
